A study of Mus musculus with 4 samples.

Results

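The 10 genes described here belong to the cornified envelope and epidermal barrier and were measured in single cells of mouse mammary hyperplasia and tumor. They are Cnfn, Crct1 and Sprr1a among the envelope proteins, the keratins Krt79, Krt16 and Krt6a, the protease Asprv1, the protease inhibitor Spink12, and the secreted proteins Dmkn and Endou. The libraries together list 31781 genes. These genes were chosen by their sums over annotated cells by library and by cell class, their shares of cells and their co-detection in the WT tumor, so those values are a description and carry no test. All 4 groups carried MMTV-PyMT, in which the mouse mammary tumour virus promoter drives polyoma middle T antigen in mammary epithelium. The groups were hyperplastic glands of 8 to 9 weeks and tumors of 16 to 20 weeks (22 weeks in the series design), each from mice labelled wild type (WT) or PKA activated. PKA is the cAMP-dependent protein kinase, and the labels do not say how it was activated. Each group had 1 library, for which the number of pooled mice is not given.

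The cornified envelope is the insoluble protein shell that keratinocytes build beneath their membrane as they die at the skin surface. Transglutaminases crosslink precursors such as small proline-rich proteins and loricrin onto a keratin scaffold, barrier lipids are attached outside, and kallikrein proteases with their inhibitors control the shedding of the finished cells. The mammary epithelium is a simple bilayer of luminal and basal cells that does not normally cornify, although keratinised (squamous) areas are a known feature of some mouse mammary tumors.

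The hyperplasia libraries held 3808 (WT) and 3818 (PKA) annotated cells and the tumor libraries 5181 (WT) and 2638 (PKA), with 10797950, 10648097, 24499374 and 16758734 UMIs (unique molecular identifiers, 1 for each captured RNA molecule). Levels are CPM, a gene's UMIs scaled to a common total for every library or class, and a library in which a gene had 0 UMIs allows a level of up to 0.278, 0.282, 0.122 and 0.179 CPM in that order (3 UMIs). All intervals are 95% intervals of counting error alone, and they compare these libraries rather than the conditions. Glands were digested with trypsin and dispase after collagenase and hyaluronidase, tumors without these last steps, and the sorting gate is not given, so digestion and stage cannot be told apart. Pairs of libraries shared 16 to 24 annotated barcodes. The luminal keratins Krt8, Krt18 and Krt19 summed to between 3050 and 33364 CPM in the tumor classes, whereas the T cell markers Cd3e and Cd3d together reached at most 0.409 CPM there. Fibroblast markers differed between the same class of the 2 tumors, and their values stand beside the results.

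Several of these genes lie in epidermal gene clusters. On GRCm38, Crct1 (chr3:93014205-93015687, minus strand) and Sprr1a (chr3:92483952-92485895, minus) both lie in the epidermal differentiation complex, 528 kb apart with 28 coding genes between them. Of those 28 genes, 3 had at least 10 UMIs in the WT tumor: the envelope precursors Ivl, Lce6a and Lce1h. The keratin genes Krt79 (chr15:101929332-101940324, minus) and Krt6a (chr15:101689910-101694307, minus) are 235 kb apart, and Krt16 is on chr11:100246091-100248902 (minus). Cnfn (chr7:25367620-25369724, minus) and Dmkn (chr7:30763756-30781063, plus) share a chromosome. Asprv1 is on chr6:86628164-86629710 (plus) and Endou on chr15:97711015-97731339 (minus). The counts are per gene and do not resolve exons or transcripts. Krt6a overlaps the predicted genes Gm49428 and Gm44342 on the plus strand, and whether counting used the strand is not given.

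Dmkn and Sprr1a were the members whose level within the cell class Luminal Progenitor 1 was higher with PKA activation at both stages. The sequences before their starts are shown for that reason. RefSeq windows on GRCm38.p6 were matched for 5 members (Sprr1a, Asprv1, Cnfn, Dmkn and Krt79, 7 windows). The names without an entry were Krt16, Krt6a, Crct1, Endou and Spink12. Below are the 150 bases that end at the start of Sprr1a (chr3:92485882-92486031, minus strand) and of Dmkn at 2 of its 3 starts (chr7:30763606-30763755 and chr7:30776255-30776404, plus strand). Each is written from 5′ to 3′. Capitals mark the AP-1 motif TGANTCA and the TATA box TATAAA.
Sprr1a: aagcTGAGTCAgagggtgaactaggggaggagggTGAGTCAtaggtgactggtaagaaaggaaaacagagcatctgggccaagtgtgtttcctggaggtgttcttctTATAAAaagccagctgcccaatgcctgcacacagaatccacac
Dmkn, first start: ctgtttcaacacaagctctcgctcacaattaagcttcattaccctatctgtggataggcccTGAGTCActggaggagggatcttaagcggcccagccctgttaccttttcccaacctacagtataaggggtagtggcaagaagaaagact
Dmkn, downstream start: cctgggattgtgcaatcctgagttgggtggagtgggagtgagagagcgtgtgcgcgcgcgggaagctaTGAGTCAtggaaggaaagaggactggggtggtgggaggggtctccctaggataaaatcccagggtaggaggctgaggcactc
Sprr1a held TGAGTCA at 146 and 116 bases before its start and a TATA box at 43 bases. Dmkn held TGAGTCA at 89 bases before its first start and at 82 bases before the downstream one. The 250 bases before the start held the AP-1 motif in 4 of 7 windows, 3 of them of Dmkn, of which 2 overlap almost wholly, against 6.75% of all 32851 windows searched on both strands. By gene it was in 2 of 5, against 7.82% of 27025 genes with any window. No member window held the grainyhead motif AACNGGTT (1.79% of all windows) or the cAMP response element TGACGTCA (1.55%). The short form TGACG, which every full element contains, was in 1 window, of Dmkn, at 177 bases before the downstream start (17.8% of all windows), and the TATA box was in 1 window (12.4%). The KLF motif CACCC was in 5 of 7 windows (52.0% of all windows), and in Sprr1a 1 of its matches overlaps an AP-1 match. These matches describe letters in the windows and are not evidence of binding. The AP-1 genes Fos and Jun, whose proteins bind such a motif, were at 259 and 507 CPM in WT and 294 and 232 CPM in PKA hyperplasia, and at 7126 and 3965 CPM in WT and 8115 and 4090 CPM in PKA tumor. Fos and Jun were chosen after their values were seen, and their part in the members' levels was not tested.

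The 3 envelope proteins were at their highest in the WT tumor. Cnfn, which encodes cornifelin of the envelope, was at 1.76 CPM (95% interval 1.06 to 2.75) in WT and 2.44 (1.6 to 3.58) in PKA hyperplasia, and at 74.3 (71.0 to 77.8) in the WT tumor and 3.22 (2.42 to 4.2) in the PKA tumor. Crct1, a small cysteine-rich protein gene beside the late envelope genes, had 1365 UMIs (55.7 CPM) in the WT tumor and 0 in each of the other 3 libraries. Sprr1a, a small proline-rich crosslinking substrate, was at 6.95 CPM (5.46 to 8.71) in WT and 27.3 (24.3 to 30.7) in PKA hyperplasia, and at 125 (121 to 130) in the WT tumor and 54.0 (50.5 to 57.6) in the PKA tumor. Thus Sprr1a alone of these 3 was also abundant outside the WT tumor. Its paralog Sprr1b stayed at or under 0.776 CPM in every library, and how reads shared by such near-identical genes were assigned is not given.

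Among the keratins, Krt79 and Krt16 were low in the PKA tumor and Krt6a was not. Krt79, a keratin of hair follicle ducts, was at 5.19 CPM in WT and 8.36 in PKA hyperplasia, and at 146 in WT and 5.37 in PKA tumor. Krt16, a keratin of stressed and fast-growing epidermis, was at 35.1, 28.9, 91.2 and 2.45 CPM in the same order, and its PKA tumor level of 2.45 CPM (1.76 to 3.32) was the lowest of the 4. Krt6a, the usual partner of Krt16, was at 2.5 CPM (1.65 to 3.64), 11.4 (9.43 to 13.6), 50.6 (47.8 to 53.5) and 24.3 (22.0 to 26.8). The pair therefore differed in the PKA tumor, where Krt6a was above both hyperplasia libraries and Krt16 below them. Reads of these keratins may be shared with close relatives: Krt6b was at 0, 0, 3.92 and 0.895 CPM and Krt17 at 122, 135, 174 and 58.5 CPM.

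The protease, the inhibitor and Endou were highest in the WT tumor, whereas Dmkn was present at 207 CPM or more in all 4 libraries. Asprv1, the retroviral-like aspartic protease that processes profilaggrin, was at 41.4 CPM in WT and 28.2 in PKA hyperplasia, and at 547 in WT and 43.4 in PKA tumor. Only the WT tumor stood apart, since the other 3 libraries lay between 28.2 and 43.4 CPM. Spink12, a Kazal-type serine protease inhibitor, had 1184 UMIs (48.3 CPM) in the WT tumor, 2 UMIs in the PKA tumor and 0 in both hyperplasia libraries. Dmkn, the secreted protein dermokine of differentiating keratinocytes, was at 207 CPM (199 to 216) in WT and 484 (471 to 497) in PKA hyperplasia, and at 477 (468 to 485) in the WT tumor and 321 (313 to 330) in the PKA tumor. It was the 1 member whose WT tumor level did not exceed every other library. Endou, a secreted poly(U)-specific endoribonuclease, had 6, 2, 492 and 8 UMIs in the order above, which is 0.556, 0.188, 20.1 and 0.477 CPM.

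**Figure D1:**
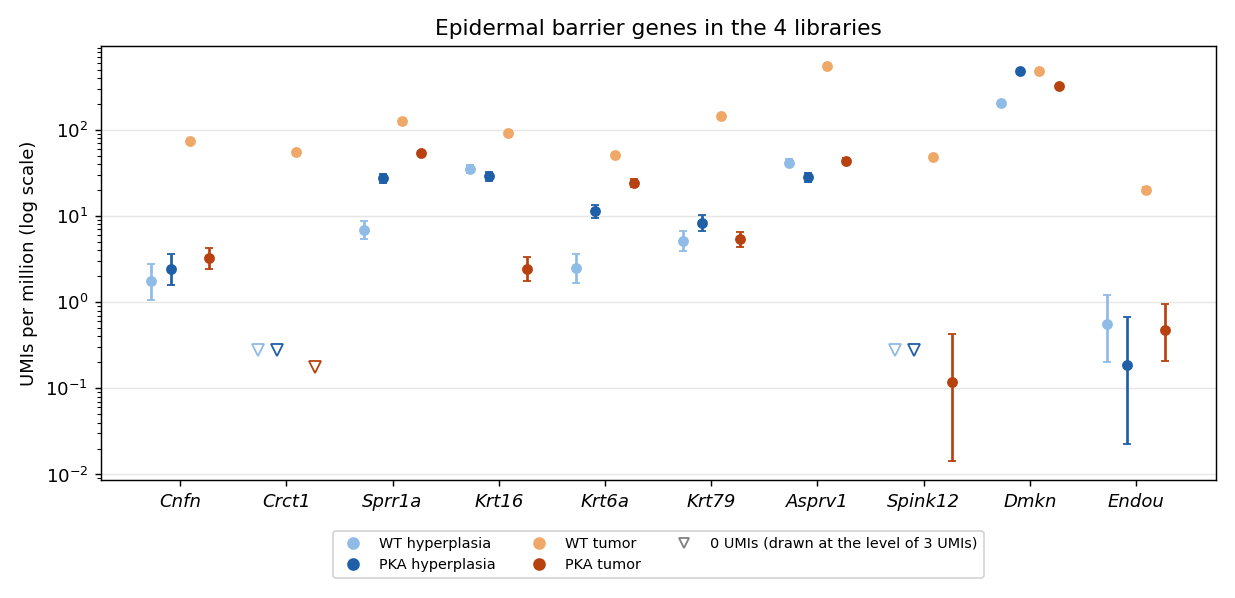
Level of each member in CPM (log axis) in the 4 libraries, 1 point per library with its exact Poisson 95% interval; open triangles are libraries with 0 UMIs, drawn at the level of 3 UMIs. For every member but Dmkn the WT tumor point is the highest, from 20.1 CPM for Endou to 547 CPM for Asprv1.

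A member was called higher or lower in a pair of libraries where both together held at least 10 UMIs, the ratio was at least 2-fold and its interval lay on 1 side of no difference. Between WT tumor and WT hyperplasia, 10 of 10 members were called higher, where 24.8% of all genes were, and 0 lower (9.41% of genes). The ratios ran from 2.30-fold for Dmkn and 2.60-fold for Krt16 to 42.2-fold for Cnfn, with Crct1 at least 201-fold and Spink12 at least 174-fold higher. Their median log2 ratio was 4.56, against 0.35 over all genes tested. Since the genes were chosen by these values, nothing is read from the counts. Without cells that held 3 or more members, 5 were called higher and 2 lower, with Krt16 at -1.65, Cnfn at -1.26 and Endou at -1.09. Those cells were found by counting members and held 89.2%, 99.1% and 98.8% of these genes' WT tumor UMIs. Leaving them out takes the members from the WT tumor by construction, so these values are not read as reversals. Endou had only 6 UMIs in WT hyperplasia. In another setting Luminal Progenitor 1 and Mature Luminal, the classes with cells in both libraries, were given the same weight. By fold alone, 4 members were then higher and 1 lower, and Krt16 (-0.86), Krt6a (-0.059), Cnfn (-0.37) and Dmkn (-1.51) changed direction. That setting leaves out the Lumino-Basal class, which held 93.1%, 74.3%, 99.1% and 92.0% of their WT tumor UMIs. Their changes are therefore not read as reversals.

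Between PKA tumor and WT tumor, 9 of 10 members were called lower, beside 5.97% of all genes, and 0 higher (7.2% of genes). The median log2 ratio of the members was -4.64, beside -0.01 over all genes. Crct1 was at least 311-fold lower, and the 2 UMIs of Spink12 gave a log2 ratio of -8.66 (-11.71 to -6.81). Endou (-5.40), Krt16 (-5.22), Krt79 (-4.76), Cnfn (-4.53) and Asprv1 (-3.66) followed. Sprr1a (log2 ratio -1.21, -1.32 to -1.11) and Krt6a (-1.06, -1.22 to -0.90) differed by a little over 2-fold, and Dmkn at -0.57 (-0.61 to -0.52) did not reach it. The Lumino-Basal class held 23.1% of WT tumor cells and 2.5% of PKA tumor cells, and in such sums fewer cells of a class and less RNA per cell cannot be told apart. Without cells that held 3 or more members, 5 members were called lower, with Krt6a at 0.51 and Endou at 0.47. Those cells were found by counting members and held 78.0% of Krt6a and 98.8% of Endou UMIs in the WT tumor. Endou had 8 UMIs in the PKA tumor before any cell was left out, too few to read a direction. With every class given the same weight, 7 were lower by fold alone, and Krt6a (0.84) and Sprr1a (0.20) changed direction. All 76 Sprr1a UMIs of the 66 PKA Lumino-Basal cells were in 1 cell, whose part equal weights enlarge.

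In the hyperplastic glands, 3 of 7 measured members were called higher with PKA activation (2.75% of all genes) and 0 lower (2.52%). Krt6a was 4.55-fold higher (log2 ratio 2.18, 1.57 to 2.84), Sprr1a 3.93-fold (1.98, 1.61 to 2.36) and Dmkn 2.33-fold (1.22, 1.15 to 1.30). Krt79 at 0.69 (0.19 to 1.20), Asprv1 at -0.56 (-0.77 to -0.34), Krt16 at -0.28 and Cnfn at 0.47 were not called. With every class given the same weight, 1 member was higher by fold alone. Between PKA tumor and PKA hyperplasia, 1 of 8 measured members was called higher (24.8% of all genes), which was Krt6a at 2.14-fold, and 1 was called lower (9.17% of genes), which was Krt16 at 11.8-fold. The higher count was 0 with TMM factors, at 4-fold and without cells of 5 or more members, and in this last setting 2 were lower. These comparisons share libraries, so their values are given side by side and not as independent results.

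The authors' cell classes placed the members in 3 main settings. In the WT tumor, the 1198 Lumino-Basal cells, a class that the authors defined by Krt14, Krt8 and Cd14, held 27.3% of all UMIs and 99.1% of Cnfn UMIs, 99% of Crct1, 98.6% of Endou, 98.6% of Spink12, 93.6% of Asprv1, 93.1% of Krt16, 92.0% of Dmkn and 87.2% of Krt79. Members together made up 5397 CPM in that class and at most 440 CPM in the other 3 classes of that tumor. Within it Asprv1 reached 1878 CPM and had a UMI in 57.6% of cells, and Dmkn reached 1609 CPM in 81.1% of cells. Crct1, in contrast, had a UMI in 3.26% of Lumino-Basal cells although its level was 202 CPM. After every cell was thinned to 2000 UMIs, the shares in this class were 69.4% for Dmkn, 32.6% for Asprv1 and 2.08% for Crct1. In the other 3 classes of the same library, at median depths of 2860 to 5492 UMIs against 5314 in Lumino-Basal cells, unthinned shares were 0.229% to 0.651% for Crct1, 11.7% to 18.3% for Asprv1 and 5.50% to 15.9% for Dmkn, and free RNA and expression cannot be told apart in those shares.

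The Mature Luminal class was the main setting of Krt6a and Sprr1a outside WT tumor Lumino-Basal cells. It held 92.6% of Krt6a UMIs in WT and 80.2% in PKA hyperplasia, and 24.1% in WT and 88.5% in PKA tumor. For Sprr1a these shares were 94.7%, 87.3%, 38.9% and 63.1%. Krt6a was at 65.1, 128, 61.1 and 251 CPM in Mature Luminal cells of the 4 libraries, and Sprr1a at 185, 334, 244 and 399 CPM. Both were thus abundant in the same class in every library. Within hyperplasia Krt16 was instead highest in Basal cells, at 271 CPM in 13.0% of 200 WT cells and 181 CPM in 13.2% of 228 PKA cells. Luminal Progenitor 1 cells held 75.4% of Dmkn UMIs in WT hyperplasia, 89.0% in PKA hyperplasia and 91.4% in PKA tumor, but that class also held 72.7%, 75.6% and 82.5% of all UMIs there. By level Dmkn was highest in Luminal Progenitor 2 cells of WT hyperplasia (231 CPM, 211 to 252, beside 215, 205 to 226, in Luminal Progenitor 1), in Luminal Progenitor 1 cells of PKA hyperplasia (570 CPM) and in Lumino-Basal cells of both tumors. In the PKA tumor this rank rests on few cells: of 234 Dmkn UMIs in 66 Lumino-Basal cells, 77 were in 1 cell and 54 in another. The level was 571 CPM, or 391 CPM without the richest cell, beside 356 CPM in Luminal Progenitor 1 cells.

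**Figure D2:**
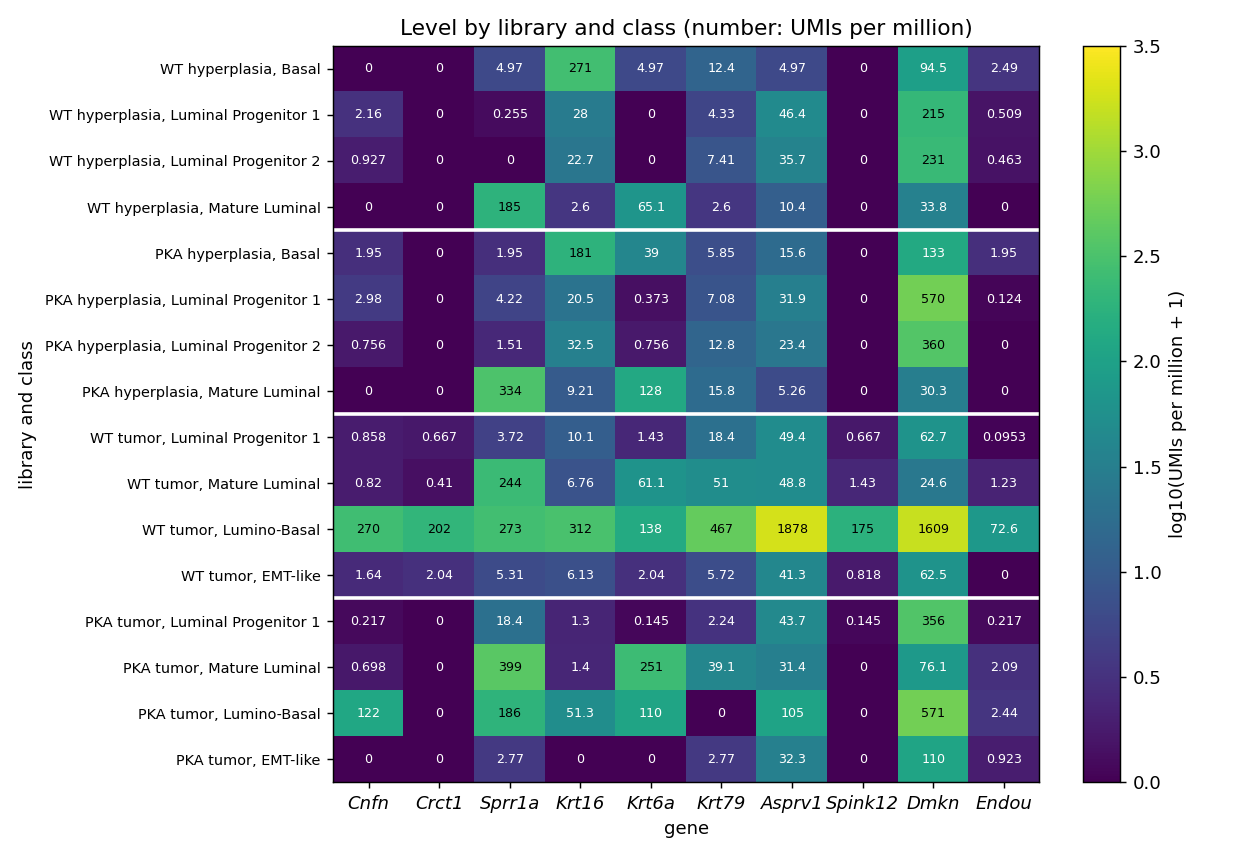
Heat map of member levels in CPM (colour on a log scale, number in each cell) by library and cell class, for classes of at least 50 cells. The WT tumor Lumino-Basal row is the highest for every member but Krt6a and Sprr1a, which peak at 251 and 399 CPM in PKA tumor Mature Luminal cells.

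Comparing PKA with WT inside a class takes the number of cells in each class out of the ratio. Free RNA was not corrected for and no doublets were removed, so RNA of other classes can still enter it. In Luminal Progenitor 1 cells of hyperplasia, 2 of 6 measured members were called higher (2.01% of genes in that class) and 0 lower (2.63%). Dmkn reached 570 CPM in PKA cells and 215 CPM in WT cells, a log2 ratio of 1.41 (1.32 to 1.49). It had a UMI in 45.0% of PKA and 27.2% of WT cells, or 41.7% and 22.6% when thinned. Sprr1a had 34 UMIs in 10 of 2885 PKA cells, 19 of them in 1 cell, and 2 UMIs in 1 of 2722 WT cells (log2 ratio 4.05, 2.09 to 7.15). In Mature Luminal cells of hyperplasia, 0 of 4 measured members were called higher (3.71% of genes) or lower (4.48%). Krt6a at 0.97 (0.32 to 1.67) and Sprr1a at 0.85 (0.47 to 1.25) fell just short of 2-fold there, and both passed it without the richest cell of each library (1.25 and 1.26). In Basal cells Krt6a had 20 UMIs in PKA and 2 in WT hyperplasia (2.97, 0.93 to 6.11).

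In Luminal Progenitor 1 cells of the tumors, 2 of 7 measured members were called higher with PKA activation (7.2% of genes) and 3 lower (4.41%). Dmkn reached 356 CPM in PKA cells and 62.7 CPM in WT cells, which is 5.68-fold higher (log2 ratio 2.51, 2.39 to 2.62), with thinned shares of 29.7% and 9.52% of cells. Sprr1a was at 18.4 and 3.72 CPM (2.31, 1.82 to 2.84), in 2.64% and 1.11% of cells. Krt79 was lower at -3.04 (-3.63 to -2.48), Krt16 at -2.96 (-3.77 to -2.23) and Krt6a at -3.31 (-6.48 to -1.20) on 2 against 15 UMIs. In the WT tumor Krt16 was at 10.1, 6.76 and 6.13 CPM in Luminal Progenitor 1, Mature Luminal and EMT-like cells, beside 312 CPM in Lumino-Basal cells. Free RNA and expression cannot be told apart at such low levels. Asprv1 reached 43.7 CPM in PKA cells and 49.4 CPM in WT cells, beside 31.9 and 46.4 CPM of the same class in hyperplasia. Across stages, Dmkn in this class was 3.43-fold lower in WT tumor than in WT hyperplasia and 1.6-fold lower in PKA tumor than in PKA hyperplasia.

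Mature Luminal cells of the tumors gave 2 of 6 members higher with PKA activation (7.67% of genes) and 1 lower (2.72%). Krt6a reached 251 CPM in PKA cells and 61.1 CPM in WT cells (log2 ratio 2.04, 1.82 to 2.27), with a UMI in 48.6% of 177 and 18.1% of 872 cells, or 31.4% and 9.23% when thinned. Dmkn was at 76.1 and 24.6 CPM (1.63, 1.24 to 2.02), but 65 of its 109 PKA UMIs were in 1 cell. Without the richest cell of each library, an alternative chosen after the data were seen, Dmkn was at 30.9 and 19.7 CPM (0.65, 0.10 to 1.18) and was not called, while Krt6a stayed called at 1.99. Sprr1a at 0.71 (0.56 to 0.85) was not called, and Krt16 was lower on 2 against 33 UMIs (-2.28, -5.38 to -0.31). Krt6a was thus lower in the PKA tumor as a whole and higher in the class that held 88.5% of its UMIs there. Of the 5 fibroblast markers 2 had UMIs in the WT class and 3 in the PKA class, summing to 901 and 30.0 CPM, nearly all of it Dcn; Col1a2 and Col3a1 were at 0 in both. Their part in the members' values was not tested.

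In Lumino-Basal cells, 0 of 10 members were called higher (7.47% of genes) and 8 lower (7.16%), but the PKA tumor had only 66 such cells. Asprv1 was at 105 CPM against 1878 in the WT tumor (-4.16, -4.63 to -3.73), Dmkn at 571 against 1609 (-1.49, -1.69 to -1.31), and Krt79 had 0 UMIs against 3116, at least 63.7-fold lower. Other members rested on very few PKA cells: all 76 Sprr1a UMIs were in 1 cell, all 50 Cnfn UMIs in 1 cell, and 36 of 45 Krt6a UMIs in 1 cell. Without cells that held 5 or more members, an alternative chosen after the data were seen, 4 members were called lower and 2 higher. Those cells were found by counting members, so leaving them out takes member UMIs away by construction. Asprv1 (-4.31), Dmkn (-1.48), Krt79 (0 against 688 UMIs) and Endou (0 against 71) were the lower ones. Krt16 at -0.04 (-0.82 to 0.65), Cnfn, Crct1 and Spink12 were no longer called. Krt6a at 2.61 (1.31 to 3.77), on 9 UMIs against 23, and Sprr1a at 5.04 (4.45 to 5.65), on the 76 UMIs of 1 cell against 36, were called higher. Without the richest cell of each gene and library instead, Krt6a was at -2.45 (-3.58 to -1.51) and Sprr1a had 0 UMIs against 1325, so the direction of both depended on which cells were left out. The class markers Krt14, Krt8 and Cd14 were at 948, 2012 and 450 CPM in the WT tumor and at 727, 2770 and 644 CPM in the PKA tumor. All 5 fibroblast markers had UMIs in both, summing to 112 CPM in WT and 722 CPM in PKA cells, of which Dcn was 47.8 and 681 CPM; their part in these ratios was not tested.

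**Figure D3:**
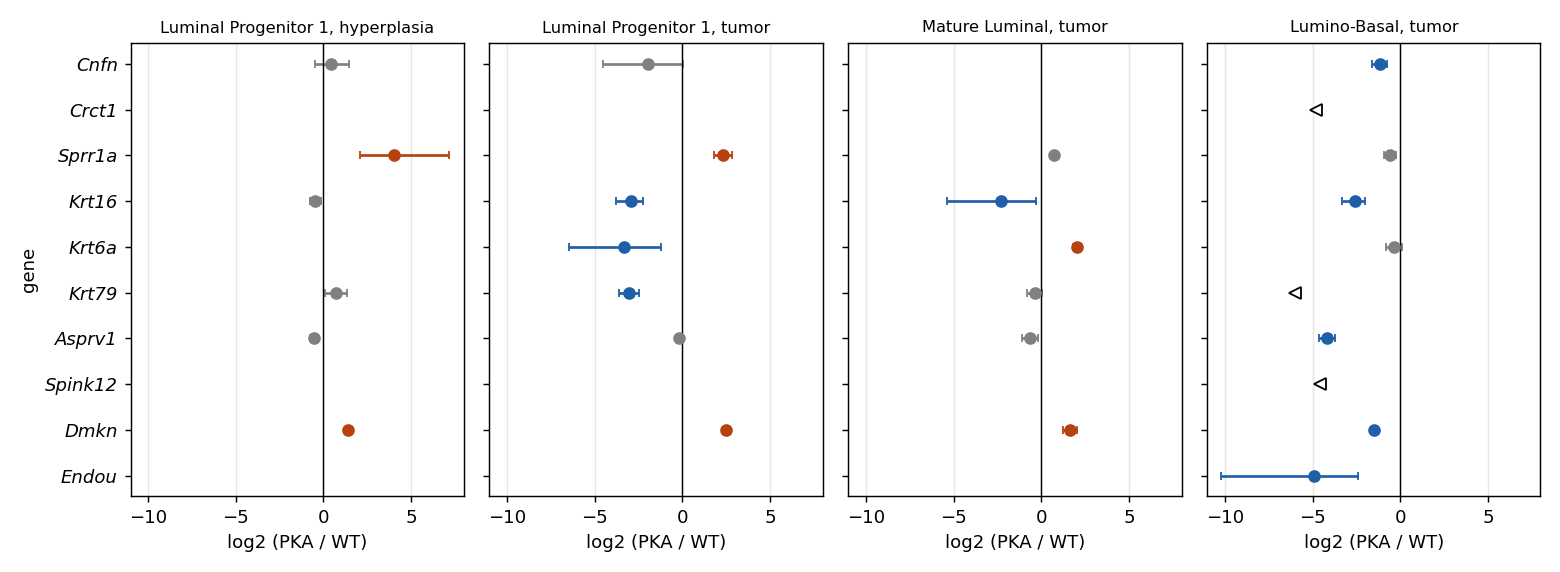
Log2 ratio of PKA over WT within a class, with 95% counting intervals, for Luminal Progenitor 1 cells of hyperplasia and tumor and for Mature Luminal and Lumino-Basal cells of tumor; red marks a higher call, blue a lower call, grey neither, and open triangles bounds where the PKA class had 0 UMIs. Dmkn is to the right in the first 3 panels (1.41, 2.51 and 1.63) and to the left in Lumino-Basal cells (-1.49); the 1.63 rests on 1 PKA cell and is 0.65 without the richest cells.

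Single cells of the WT tumor held several members at once. Of its 5181 cells, 2559 had a UMI of no member, 1583 of 1, 725 of 2, 217 of 3 to 4 and 97 of 5 to 9 members. At least 3 members were present in 314 WT tumor cells (6.06%, Clopper-Pearson 5.43 to 6.75) and 27 PKA tumor cells (1.02%, 0.68 to 1.49). The hyperplasia libraries had 12 such cells each (0.315% in WT and 0.314% in PKA). When cells were thinned to 2000 UMIs, the shares were 3.26% (155 of 4753 cells) in the WT tumor and 0.204% (5 of 2451) in the PKA tumor. Of the 314 WT cells, 30 were Mature Luminal, 19 Luminal Progenitor 1, 1 EMT-like and the rest Lumino-Basal, whereas of the 27 PKA cells 14 were Mature Luminal, 12 Luminal Progenitor 1 and 1 Lumino-Basal.

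**Figure D4:**
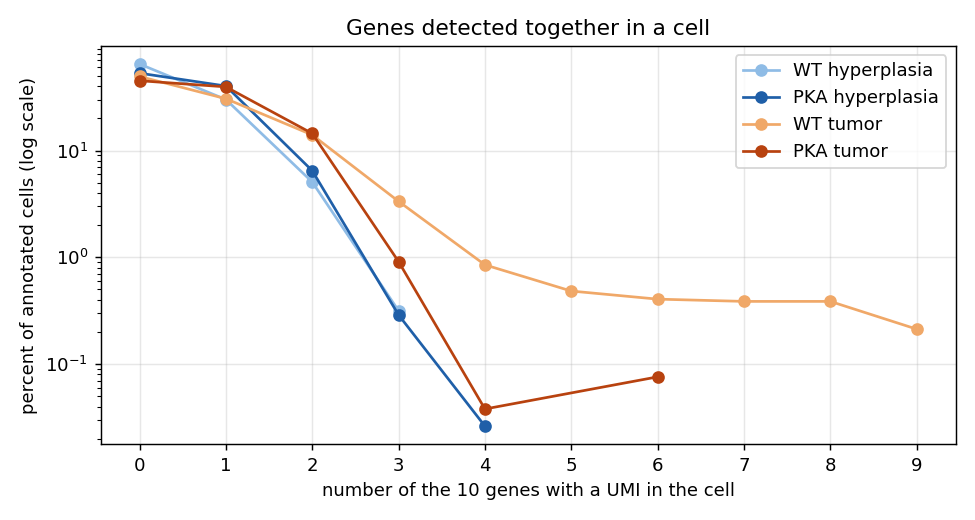
Percent of cells in each library by the number of the 10 members with at least 1 UMI (log axis). The WT tumor is the only library with cells beyond 6 members, with 97 cells (1.87%) at 5 or more against 2 cells in the PKA tumor and 0 in hyperplasia.

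All 97 cells with 5 or more members were Lumino-Basal, 8.10% of that class, and they held 60.6% of the members' UMIs in the WT tumor. Their share of a gene's UMIs separated the members into groups. Cnfn (98.7%), Crct1 (97.1%) and Spink12 (96.4%) had nearly all of theirs there, Endou (84.2%), Krt16 (80.2%), Asprv1 (72.9%), Krt6a (72.5%) and Krt79 (68.0%) were mainly there, and Sprr1a (58.3%) and Dmkn (24.9%) were spread more widely. These shares are partly set by counting members to find the cells. The 97 cells had a median of 3581 UMIs, 1604 genes and 0.835% mitochondrial UMIs, below the 5468 UMIs, 2514 genes and 1.45% of Lumino-Basal cells with under 3 members.

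A few cells carried very large amounts of single members. In the WT tumor the 10 richest cells held 85.4% of Spink12 UMIs, 81.9% of Crct1, 66.8% of Cnfn, 55.4% of Sprr1a, 27.5% of Asprv1 and 7.87% of Dmkn. The 2 richest cells held at least 50% of Spink12 UMIs, and the same share took 3 cells for Crct1, 6 for Cnfn, 8 for Sprr1a and 178 for Dmkn. The richest cell had 574 UMIs of Asprv1, another 498 of Sprr1a, 337 of Spink12, 302 of Crct1 or 291 of Cnfn. For these members the library level and its counting interval rest on few cells, and the interval is too narrow for the spread between cells.

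Co-detection was uneven among the members. Cells with Cnfn held a median of 6 other members and those with Endou or Crct1 a median of 5, those with Spink12 4 and those of the other 6 members 1 or 2. Of the 90 Endou cells, 86 also had Asprv1 (95.6%, 89.0 to 98.8), which was in 26.1% of all cells of the library, and 83 had Dmkn (92.2%). Of 81 Cnfn cells, 67 had Asprv1 (82.7%, 72.7 to 90.2). Crct1 (53 cells, 1.02% of all cells of the library) and Spink12 (65 cells, 1.25%) met in 7 cells. Asprv1 was in 42 of the Crct1 cells and 46 of the Spink12 cells. Over the 16 library-by-class sums Crct1 and Spink12 had Pearson r = 0.999, since both were near 0 outside 1 class. Over 4753 thinned cells their r was 0.067. In Mature Luminal cells, Krt6a was found in 49 of 134 Sprr1a cells of the WT tumor (36.6%, beside 18.1% of all cells of the class) and in 30 of 35 Sprr1a cells of the PKA tumor (85.7%, beside 48.6%). The other way round, Sprr1a was in 31.0% of 158 Krt6a cells (beside 15.4%) and in 34.9% of 86 (beside 19.8%). Cells share a library and these sums share depth, so the coefficients describe these cells only.

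Genes outside the 10 differed between the same cells, as read by comparing the 97 WT tumor Lumino-Basal cells with the 934 of under 3 members. Kallikreins, proteases of desquamation, were far higher: Klk6 was at 23182 and 24.4 CPM, Klk8 at 6570 and 8.50, Klk10 at 6270 and 9.82, and Klk7 at 3946 and 0.944 CPM. By the same rule for a call, 59 of the 89 measured genes of 8 epidermal lists without the members were higher (66.3%) and 4 lower (4.49%), beside 7.76% and 12.7% of all other genes, and nothing is read from this since the cells were chosen by counting members. The higher genes were 15 of 19 desquamation proteases and inhibitors, 11 of 16 junction genes, 8 of 20 transcription factors, 7 of 8 envelope precursors, 6 of 8 keratins, 6 of 10 lipid enzymes, 3 of 5 crosslinking enzymes and 3 of 3 S100-fused genes. Among them were the filament-binding Rptn (1122 and 0.189 CPM) and Flg (107 and 0.567), the suprabasal keratins Krt1 (283 and 0.189) and Krt10 (253 and 34.6), the crosslinking enzyme Tgm1 (308 and 19.5), the corneodesmosome gene Cdsn (451 and 1.51) and the lipid enzyme Elovl4 (572 and 1.70). Loricrin, the main precursor of epidermal envelopes, reached 30.2 CPM (11 UMIs of Lor) and involucrin 11 CPM (4 UMIs of Ivl). Of the interfollicular epidermis markers, 4 of 5 had UMIs in WT tumor Lumino-Basal cells (73.4 CPM in sum, Krt2 at 0) and 3 of 5 in PKA ones (36.6 CPM). The other classes of the WT tumor had 3 or 4 of 5 at 22.3 to 32.6 CPM, those of the PKA tumor 3 or 4 at 29.1 to 46.8 CPM, and the hyperplasia classes 1 or 2 at 24.9 to 57.3 CPM. Whether cells of the skin contribute to these values was not tested. Of 8 hair follicle and sebaceous markers, 3 had UMIs in WT tumor Lumino-Basal cells (4.49 CPM in sum, of which Krt27 was 4.19), and the follicle keratins Krt75, Krt71 and Krt25 had 0 there.

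Several luminal genes were lower in the same 97 cells, of which Cldn7 and Gata3 also belong to the epidermal lists. Krt18 was at 1650 and 5902 CPM, Krt8 at 445 and 2102, the junction gene Cldn7 at 247 and 1172, the progenitor marker Cd14 at 115 and 495 and the luminal transcription factor Gata3 at 168 and 435 CPM. Krt14 was higher (6347 and 439 CPM). Krt5 was at 13.7 CPM (5 UMIs) and 10.4, and Trp63 at 2.75 CPM (1 UMI) and 1.89, too few UMIs to tell a difference. The remaining basal and luminal markers are not given for these cells, so nothing is read about basal or luminal markers as a set. The factor Klf4, which promotes barrier formation in skin, was at 4122 and 987 CPM, and the cysteine protease gene Ctsl at 2258 and 292 CPM.

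**Figure D5:**
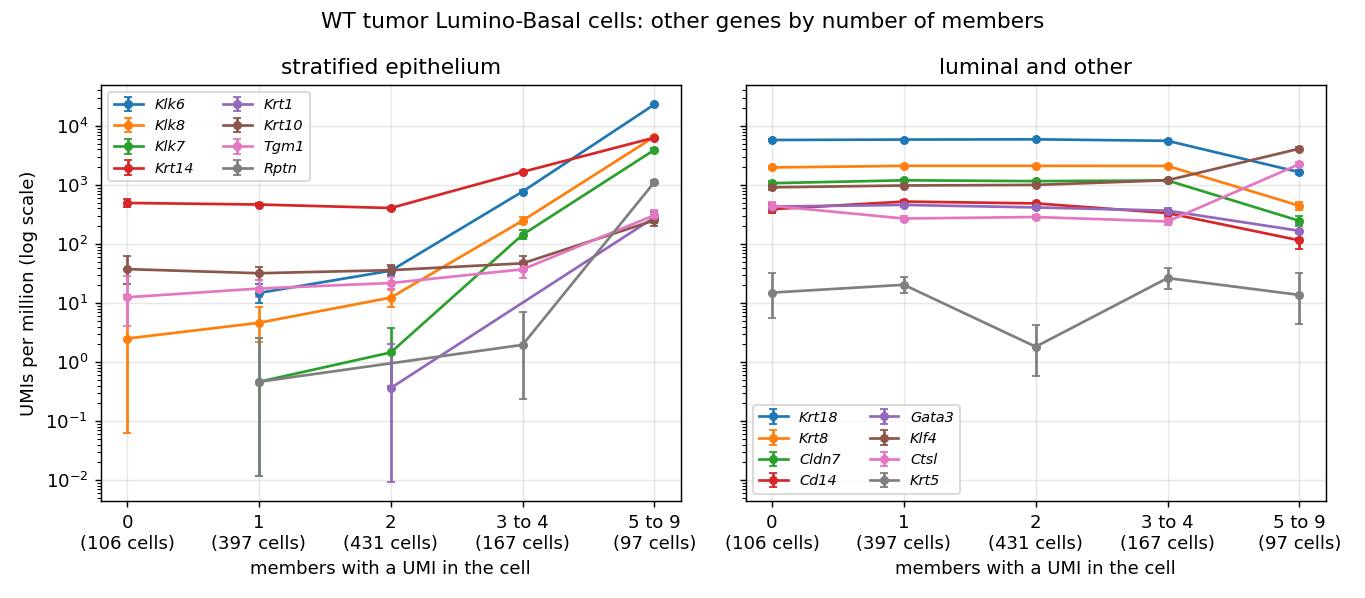
Levels of 16 genes outside the members, in CPM (log axis), in WT tumor Lumino-Basal cells grouped by the number of members with a UMI (0, 1, 2, 3 to 4 and 5 to 9); groups with 0 UMIs of a gene are not drawn. Klk6 climbs from 14.9 CPM at 1 member to 23182 CPM at 5 to 9 members, and Krt18 is at 5788 CPM at 0 and 1650 CPM at 5 to 9 members.

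Of the 2 PKA tumor cells with 5 or more members, 1 was Lumino-Basal with 4056 UMIs and resembled the WT cells in its members: it had 50 UMIs of Cnfn, which is 92.6% of that gene's UMIs in the library, 36 of Krt6a, 34 of Asprv1 and 54 of Dmkn. The other was Mature Luminal with 9039 UMIs and had no Cnfn and no Asprv1. It held 17 UMIs of Krt79, 14 of Krt6a, 24 of Sprr1a and 65 of Dmkn.

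The genes most like the members were sought over the 16 library-by-class sums, by Pearson r of log2(CPM + 10) with the members' mean. The closest were Klk7 (0.954), Pamr1 (0.939), Klk6 (0.911), Cyp1b1 (0.910), Klk8 (0.896), Foxq1 (0.890), Psma7 (0.827), Klk10 (0.823), Fam214a (0.817) and Cops5 (0.804), all highest in WT tumor Lumino-Basal cells. With 1 instead of 10 CPM added, 6 of these 10 remained, and Klk8, Foxq1, Klk10 and Fam214a did not. Across 4753 thinned WT tumor cells the closest to the members' sum were Klk8 (0.562), Klk6 (0.559), Klk10 (0.532), Foxq1 (0.530), Sbsn (0.527), Tmprss11d (0.523), Prss27 (0.482), Klk7 (0.464), Gltp (0.449) and S100a14 (0.445). By member, the nearest gene over class sums was Klk6 for Asprv1 (0.920), Klk7 for Cnfn (0.968), Crct1 (0.901) and Spink12 (0.901), Pamr1 for Endou (0.928), Gas7 for Krt16 (0.952), Nxn for Krt79 (0.844), and Sbsn for Dmkn (0.880). Dusp10 for Krt6a (0.953) and Rtraf for Sprr1a (0.935) peaked instead in PKA tumor Mature Luminal cells. Sbsn lies 7621 bases before Dmkn on chromosome 7 and Krtdap 6832 bases after it, with no coding gene between. Sbsn was at 18.2, 21.2, 32.7 and 11.4 CPM and Krtdap at 0.185, 0, 8.00 and 0.835 CPM in the 4 libraries, hyperplasia before tumor and WT before PKA.

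The wider epidermal programme was read from 8 lists of 165 genes without the members. Between PKA and WT tumor, 106 were measured, of which 42 were lower (39.6%) and 1, Cldn1 at 2.25-fold, was higher, beside 5.97% and 7.2% of all genes. The share of Lumino-Basal cells moved with these values (23.1% and 2.5%). Lower genes were 11 of 21 desquamation proteases and inhibitors (median log2 ratio -2.26, or -2.04 with genes at 0 UMIs set to their bound, beside -0.01 over all genes), led by Klk6 (83.6-fold), Klk7 (73.3-fold) and Tmprss11d (0 UMIs, at least 126-fold). They were also 7 of 10 suprabasal keratins (median -1.89), such as Krt4 at 15.8-fold, 3 of 3 S100-fused genes (-2.91), with Rptn at least 96.2-fold, and 7 of 12 envelope precursors (-1.11), such as Krtdap at 9.58-fold and Sbsn at 2.87-fold. Junction genes were lower in 7 of 18 cases (-0.76), lipid enzymes in 3 of 13 (-0.42), crosslinking enzymes in 2 of 7 (-0.43; Tgm1 at 0.03) and transcription factors in 2 of 22 (-0.17; Klf4 at -0.11).

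In WT tumor against WT hyperplasia, 52 of 104 measured list genes were higher (50%) and 14 lower, beside 24.8% and 9.41% of all genes. Of the junction genes 7 of 18 were lower and 3 higher, while transcription factors were higher in 12 of 22 cases. In PKA against WT hyperplasia, 7 of 78 were higher (8.97%) and 0 lower, beside 2.75% and 2.52% of all genes. These 7 were the kallikreins Klk6 (3.16-fold) and Klk11 (5.58-fold), the inhibitor Spink5 (2.29-fold), the lipid genes Nipal4 (4.46-fold) and Dgat2 (2.88-fold), the deiminase Padi1 (2.22-fold) and the desmosome gene Pkp1 (2.05-fold). In PKA tumor against PKA hyperplasia, 14 of 86 were higher (16.3%) and 18 lower (20.9%), beside 24.8% and 9.17% of all genes.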

How the data were processed

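Single-cell RNA was captured with the 10x Chromium 3' v2 kit in 4 libraries, and groups were taken from the sample titles. The deposited files hold UMI counts per gene and barcode; per the submitters' processing notes Cell Ranger, STAR 2.5.3a, featureCounts and Subread 1.6.0 were used with GRCm38/mm10. Which gene annotation was used is not stated in the labels. The authors deposited a cell class and a mitochondrial fraction for each annotated cell, and per the series design classes came from Monocle2 and marker genes. UMIs of a member were summed over annotated cells by library and class and divided by the total (CPM). Barcodes without a class (1371 WT and 1040 PKA in hyperplasia, 619 WT and 296 PKA in tumor) entered no main comparison. They were used only in an alternative setting with all barcodes and in the values given for them below. No doublets were removed.

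No test was possible with a single library in each group. Levels carry exact Poisson, log2 ratios conditional binomial and shares Clopper-Pearson 95% intervals. The calls, the ratio intervals and the thinning were tested on simulated data. The simulated library sums were Poisson draws without the spread between cells seen here, so they cannot test the intervals for that spread. For shares, each cell was thinned once to 2000 UMIs and shallower cells (1090, 1148, 428 and 187 in the same order) were left out. The members and gene lists were chosen with earlier results of these data known. Named genes were the members, genes of the lists and markers, the 10 genes most like the members by each of 2 measures and the nearest gene of each member. Fos and Jun lie outside this rule and were chosen after their values were seen. The predicted genes that overlap Krt6a were named for their position. Gene positions came from GENCODE on GRCm38. The work used Python 3.11.15 with pandas 2.3.3, SciPy 1.17.1, NumPy 2.4.6 and matplotlib 3.10.9, with TMM factors from edgeR 4.0.16 in R 4.3.3 as an alternative.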

Additional observations from a re-analysis of the deposited data

Results flagged for a closer look

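The members Krt6a, Sprr1a, Dmkn and Krt79 lay on opposite sides of no difference at the 2 stages when PKA was compared with WT over whole libraries. Krt6a had a log2 ratio of 2.18 in hyperplasia and -1.06 in tumor, Sprr1a 1.98 and -1.21, Dmkn 1.22 and -0.57, and Krt79 0.69 and -4.76. The intervals of each ratio lay on 1 side of 0, but the difference between stages was not tested, since each stage has 1 library per group. Within Luminal Progenitor 1 cells Dmkn and Sprr1a were higher with PKA activation at both stages.

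Barcodes that the authors left without a class gave a signal in the PKA hyperplasia library that was above the WT hyperplasia library. Krt6a was at 9.3 CPM there and had 0 UMIs in the WT barcodes, Sprr1a was at 49.8 CPM against 0.81, and Dmkn at 491.6 CPM against 150.7. The same 3 members were higher in the annotated cells of PKA hyperplasia.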

How the results depend on the processing

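Of 292 recomputed log2 ratios of members, 205 stayed within the counting interval, 73 moved and 14 of members that had been called changed direction. Changes of direction of members that had not been called are not among these 14. Leaving out cells with 5 or more members and leaving out the richest cell of a gene were chosen after the data were seen. Of 40 ratios within a class recomputed in these ways, 14 moved and 0 changed direction among those called. In Lumino-Basal cells Krt6a (-0.33 to 2.61) and Sprr1a (-0.56 to 5.04), not called at first, changed direction without cells of 5 or more members. Ratios left with too few UMIs are not among the 40.

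Members called higher in PKA against WT hyperplasia fell from 3 to 1 with an unweighted class mean and at 4-fold. The class mean takes only classes of at least 50 cells in both libraries. Across stages these are Luminal Progenitor 1 and Mature Luminal cells alone. Counts with the class mean and with the mean of cells' CPM are by fold alone. Members lower in PKA against WT tumor were 5 without cells of 3 or more members. For WT tumor against hyperplasia the higher count was 5 and the lower count 2 without those cells, and 4 and 1 with the class mean. For PKA tumor against hyperplasia the higher count was 0 with TMM factors, at 4-fold, without cells of 5 or more members and without the PKA tumor cells of that kind, 4 with the mean of cells' CPM, and 2 with the class mean or by fold alone; the lower count was 3 without cells of 3 or more members and 2 without cells of 5 or more, without those PKA cells alone and with the class mean. The share of WT tumor cells with 3 or more members (6.06%) was 20.1% for 2 or more, 1.87% for 5 or more, 3.26% when thinned and 3.22% where a member needed 2 UMIs. Within Lumino-Basal cells of the tumors, members lower fell from 8 to 4 and members higher rose from 0 to 2 without cells of 5 or more members. List genes higher in PKA tumor against hyperplasia were 8 with a minimum of 50 UMIs.

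In PKA against WT tumor the log2 ratio of Krt6a became 0.51 without cells of 3 or more members, 0.59 without cells of 5 or more and 0.84 with the class mean. Endou became 0.47 without cells of 3 or more, and Sprr1a 0.20 with the class mean. The Sprr1a value rests in part on 1 PKA Lumino-Basal cell, which held all 76 UMIs of the gene in that class. In WT tumor against hyperplasia, without cells of 3 or more members, without cells of 5 or more and with the class mean, Krt16 became -1.65, -0.94 and -0.86 and Cnfn -1.26, -0.82 and -0.37. Endou became -1.09 without cells of 3 or more, and with the class mean Krt6a became -0.059 and Dmkn -1.51. These settings use fewer cells, fewer classes or other class weights, and the cause was not tested further. Between WT tumor and hyperplasia the class mean leaves out the Lumino-Basal class, which held most WT tumor UMIs of these members. Cells left out by their number of members held most WT tumor UMIs of several members, so those settings lower these members by construction. The Endou values rest on too few UMIs for a direction, with 6 in WT hyperplasia and 8 in the PKA tumor before any cell was left out. No paired analysis was possible because each group has 1 library and the labels carry no replicate numbers.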
